A study of Mus musculus with 95 samples.

Results

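Saa3, Lcn2 and Serpina3n, acute-phase genes chosen because an earlier look at these arrays had them among the transcripts with the largest responses, were followed in mouse lung over all 19 groups of strain, day and exposure. They are 3 of the 8251 genes measured, and 4 probe sets are paired with them alone: 102712_at for Saa3 (Entrez gene 20210), 160564_at and 161684_r_at for Lcn2 (16819) and 104374_at for Serpina3n (20716). Because their differences between exposed and unexposed mice chose them, those differences are given with a standard error (SE) as a description, and no test is attached to them.

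Serum amyloid A proteins are lipid-binding proteins of the acute-phase response; liver makes most members of the family, whereas Saa3 is also made in other tissues by macrophages and epithelial cells. Lcn2 (lipocalin 2, or neutrophil gelatinase-associated lipocalin) binds the iron-carrying siderophores of microbes and is stored in neutrophil granules, and airway and alveolar epithelium also make it when stimulated. Serpina3n is a secreted inhibitor of serine proteases, a mouse relative of human alpha-1-antichymotrypsin, and is induced by cytokines of the IL-6 family and by glucocorticoids.

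Total RNA of lung homogenate from 95 mice, labelled female and 8 weeks old, was hybridised to 1 array per mouse. Exposed mice (60 arrays) lived with a mouse already carrying a heavy infection with the lung fungus Pneumocystis murina, and unexposed mice (35 arrays) did not. The strains were C57BL/6 and CD40L-KO mice, which lack CD40 ligand, through which helper T cells signal to CD40 on B cells, macrophages and dendritic cells. C57BL/6 mice were taken at day 7 (8 exposed, 4 unexposed), day 14 (8 and 6) and day 21 (6 and 5) of 1 experiment, at day 34 (10 and 5) and day 41 (10 and 5) of another, at day 32 (3 and 2) beside CD40L-KO mice (3 and 3), and at day 75 (3 exposed). CD40L-KO mice were also taken exposed at day 35 (4 mice), day 39 (2) and day 75 (3) and unexposed under the label day 14 (5). The day 35 mice were set against the unexposed mice labelled day 14, and the mice of days 39 and 75 against the unexposed mice of day 32 of their strain, so for these days time, batch and exposure cannot be told apart. On all arrays of days 39 and 75 (2 of 2, 3 of 3 and 3 of 3) and 0 of their unexposed arrays the Y-linked Eif2s3y was brighter than Xist, against the label female, so there the apparent sex cannot be told apart from exposure either. In the first 3 experiments exposed and unexposed mice were in separate cages, and cage and exposure cannot be told apart there either. Nothing in the labels says how the CD40L-KO line was made or kept.

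Levels are deposited intensities, scaled by array to a common mean, and differences are of mean log2(intensity + 8), a scale that understates changes of dim transcripts. Levels were not compared between probe sets, since brightness also depends on the probes. The lung identity of the samples was plain: the mean level of the alveolar markers lay between 8.91 and 9.75 and that of the airway markers between 8.84 and 9.66 on all 95 arrays, against 3.84 to 4.64 for hepatocyte markers and 6.12 for the median gene. Cd40lg lay between 3.05 and 3.75 in both strains, close to the floor of 3 that the offset sets, and so does not check the strain labels. Eif2s3y was brighter than Xist on 17 arrays in all, those of days 39 and 75 and of the CD40L-KO groups of days 35 and 14. A mean level of 11 squamous epithelium markers above 7 marked 10 arrays, which included 3 of the 5 unexposed and 2 of the 10 exposed mice of day 34. They also included 2 of the 3 CD40L-KO controls of day 32. In whole lung, fewer cells of a type and less RNA per cell cannot be told apart.

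The 250 bases before 1 annotated transcription start of each gene are shown because the 3 genes were high together at days 32 and 34 and regulatory factors often bind close to the start. They are from RefSeq, build GRCm38.p6, and each is printed 5′ to 3′ on the strand of its gene: Saa3 at chr7:46715677-46715926 (minus strand), Lcn2 at chr2:32387740-32387989 (minus strand) and Serpina3n at chr12:104406458-104406707 (plus strand). The start used for Saa3, 46715676, lies inside the annotated gene, whose outer end is 46719615. That used for Serpina3n, 104406708, lies inside a gene that begins at 104406646. Capitals mark matches, on either strand, to the C/EBP pattern TTNNGNAA and the NF-kB pattern, which is GGG, any 5 bases and CC.
Saa3: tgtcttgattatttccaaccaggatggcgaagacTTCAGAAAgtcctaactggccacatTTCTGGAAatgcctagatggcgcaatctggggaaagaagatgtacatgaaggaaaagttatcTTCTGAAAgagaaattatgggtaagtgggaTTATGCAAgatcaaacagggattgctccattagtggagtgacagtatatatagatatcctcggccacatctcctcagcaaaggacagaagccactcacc
Lcn2: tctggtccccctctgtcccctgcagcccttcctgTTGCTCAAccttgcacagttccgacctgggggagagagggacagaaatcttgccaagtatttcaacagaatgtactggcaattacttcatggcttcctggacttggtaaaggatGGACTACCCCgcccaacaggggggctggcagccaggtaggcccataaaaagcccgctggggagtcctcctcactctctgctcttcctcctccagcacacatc
Serpina3n: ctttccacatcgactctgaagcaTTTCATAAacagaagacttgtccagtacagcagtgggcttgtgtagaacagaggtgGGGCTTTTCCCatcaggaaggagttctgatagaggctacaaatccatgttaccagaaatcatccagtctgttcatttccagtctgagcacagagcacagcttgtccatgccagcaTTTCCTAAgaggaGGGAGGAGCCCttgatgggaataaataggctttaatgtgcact
Saa3 holds 4 matches to the C/EBP pattern, which begin 216, 191, 129 and 99 bases before the start, and none to the NF-kB pattern. Lcn2 holds 1 C/EBP match, 216 bases before the start, and 1 NF-kB match, 102 bases before it. Serpina3n holds 2 C/EBP matches, at 227 and 56 bases, and NF-kB matches on both strands that overlap each other in 2 places, at 171 and 43 bases. The STAT pattern TTCNNNGAA was found in none of the 3 stretches. Such short patterns are common: among 32851 promoters of this length, 36.8% held the C/EBP pattern, 45.8% the NF-kB pattern and 7.0% the STAT pattern. A match is a description of these letters and not a measured site.

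Saa3 was the member with the widest range. At day 32 its intensity was 2454.4, 977.6 and 2866.9 in the 3 exposed C57BL/6 mice and 65.0 and 24.0 in the 2 unexposed mice. At day 34 the 10 exposed mice ran from 304.5 through a median of 724.9 to 2078.1, and the unexposed mice read 82.9, 27.3, 35.2, 61.8 and 25.1. At both days the lowest exposed mouse lay far above the highest unexposed mouse, and the differences were 5.3 (SE 0.45) and 3.95 (SE 0.42) on the log2 scale, the highest and second highest of all 8251 genes (ranks 1 and 2). By day 41 the exposed mice ran from 50.6 through 172.5 to 696.4 against 122.7, 43.0, 26.5, 35.5 and 32.1 in unexposed mice, a difference of 1.81 (SE 0.42). The groups overlapped then: 8 of the 10 exposed mice were above every unexposed mouse, of which the first stood apart from the other 4. At day 75 the 3 exposed C57BL/6 mice read 26.8, 76.0 and 109.2, and their range overlapped that of the day 32 unexposed mice, with a difference of 0.53 (SE 0.54) that was 1.13 without the first and -0.06 without the second of those unexposed mice, and 1.04 without exposed mouse 1 and 0.16 without exposed mouse 3.

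Lcn2 read 84.4 or more in every mouse and had its largest difference at day 34 rather than day 32. Its exposed mean was higher at day 32 (10.74) than at day 34 (10.25), and its unexposed mean was lower at day 34 (7.39 against 8.83). Its intensity at day 32 was 2222.0, 1124.2 and 1968.8 in exposed and 389.1 and 513.8 in unexposed C57BL/6 mice, a difference of 1.91 (SE 0.36). At day 34 the exposed mice ran from 646.0 through a median of 1074.1 to 2507.1, and the unexposed mice read 84.4, 143.6, 247.6, 142.1 and 237.6, a difference of 2.86 (SE 0.27). At day 41 the exposed mice ran from 658.5 through 992.1 to 1540.1, and the unexposed mice read 455.8, 369.9, 400.3, 522.8 and 643.1, a difference of 1.05 (SE 0.27). Exposed and unexposed mice did not overlap at any of these 3 days. By day 75 the exposed C57BL/6 mice, at 366.8, 377.7 and 330.4, were all below both unexposed mice of day 32, as were 19.6% of all genes, with 16.5% all above.

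The exposed means of Lcn2 were close at days 34 and 41 (10.25 ± 0.65 and 9.95 ± 0.37, SD, n = 10 each), whereas the unexposed means were 7.39 ± 0.6 and 8.9 ± 0.31 (SD, n = 5 each). The unexposed group of day 34 was the lowest of all 19 groups for Lcn2, and the 5 mice of day 34 did not overlap the 5 of day 41. The share of all genes that also separated these unexposed groups was not counted, so the separation is not shown to be particular to Lcn2. Signs of RNA quality and of other tissue moved with this. The Gapdh ratio (3' over 5' probe set, on the log2 scale), which rises as RNA degrades, was 2.134, 1.689, 0.31, 1.259 and 0.273 in unexposed mice 1 to 5 of day 34, against -0.07 to 0.13 in those of day 41. The squamous level was 7.06, 7.607, 6.609, 7.554 and 4.203 in the same 5 mice, against 4.38 to 4.8 at day 41, and the skeletal muscle level ran from 4.36 to 7.76 against 4.63 to 4.84. The 3 mice with the highest Gapdh ratios had the 3 lowest values of Lcn2. The 2 mice with ratios under 0.5, mice 3 and 5, read 247.6 and 237.6, below every unexposed mouse of day 41. Their ratios, 0.31 and 0.273, were also above the range of day 41, and mouse 3 had a squamous level of 6.609. With the unexposed mice of both days pooled, the Lcn2 difference was 2.11 (SE 0.29) at day 34 and 1.8 (SE 0.29) at day 41; with the Gapdh ratio as a covariate it was 2.58 (SE 0.3) at day 34. The part of RNA quality and of the other tissue in the low values of day 34 was not tested further.

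**Figure D1:**
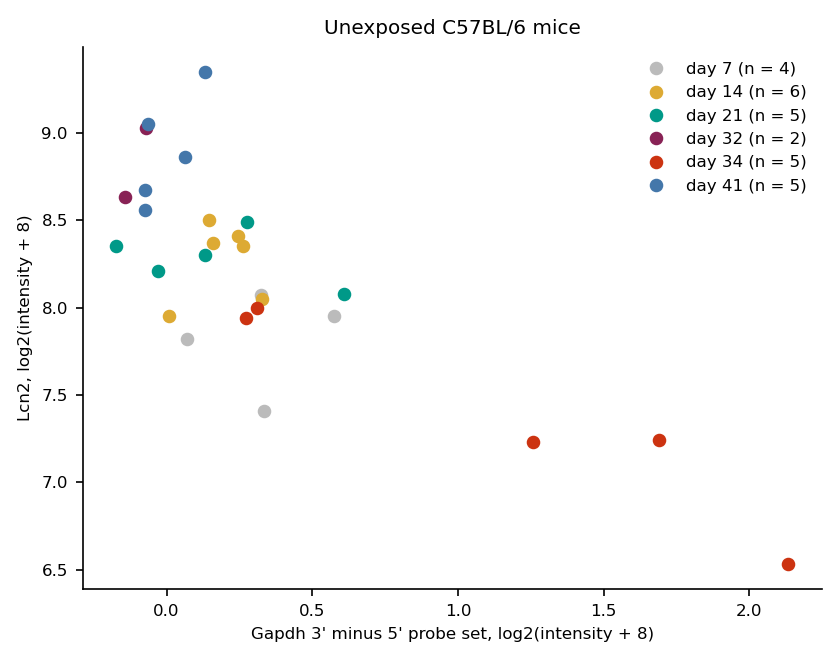
Lcn2 in the 27 unexposed C57BL/6 mice, as log2(intensity + 8) on the vertical axis, against the Gapdh ratio, 3' over 5' probe set on the log2 scale, on the horizontal axis, with 1 point per mouse coloured by day. The day 34 mice (n = 5) lie below those of day 41 (n = 5), and 3 of them have ratios from 1.259 to 2.134.

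Serpina3n differed less. Its intensity at day 32 was 370.9, 564.7 and 977.7 in exposed and 202.0 and 296.9 in unexposed C57BL/6 mice, a difference of 1.24 (SE 0.34). At day 34 the exposed mice ran from 285.7 through 326.9 to 656.5, and the unexposed mice read 201.5, 149.0, 196.8, 199.8 and 255.6, a difference of 0.81 (SE 0.15). The groups did not overlap at either day. At day 41 the order was the other way, with exposed mice from 189.2 through 234.8 to 294.7 against 267.4, 336.3, 319.8, 250.9 and 250.7 in unexposed mice. There 7 of 10 exposed mice were below every unexposed mouse, and the difference was -0.26 (SE 0.15). Serpina3n was lower in unexposed mice at day 34 (7.68 ± 0.26) than at day 41 (8.18 ± 0.19, SD, n = 5 each), and with the unexposed mice pooled its differences were 0.56 (SE 0.13) and -0.01 (SE 0.13), so the lower level at day 41 rests on which unexposed mice are used. At day 75 the exposed mice read 294.7, 311.4 and 263.6, a difference of 0.23 (SE 0.29).

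Read against all genes, the lack of overlap says little at day 32, where 17% of all 8251 genes had every exposed mouse above both unexposed mice, as all 3 members did. It was rarer at day 34, where 3 of 3 members and 1.26% of all genes had no overlap with exposed mice higher, and at day 41, where Lcn2 alone of the 3 did, against 0.739% of all genes. The members were chosen from these contrasts, so these counts carry no weight of their own.

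**Figure D2:**
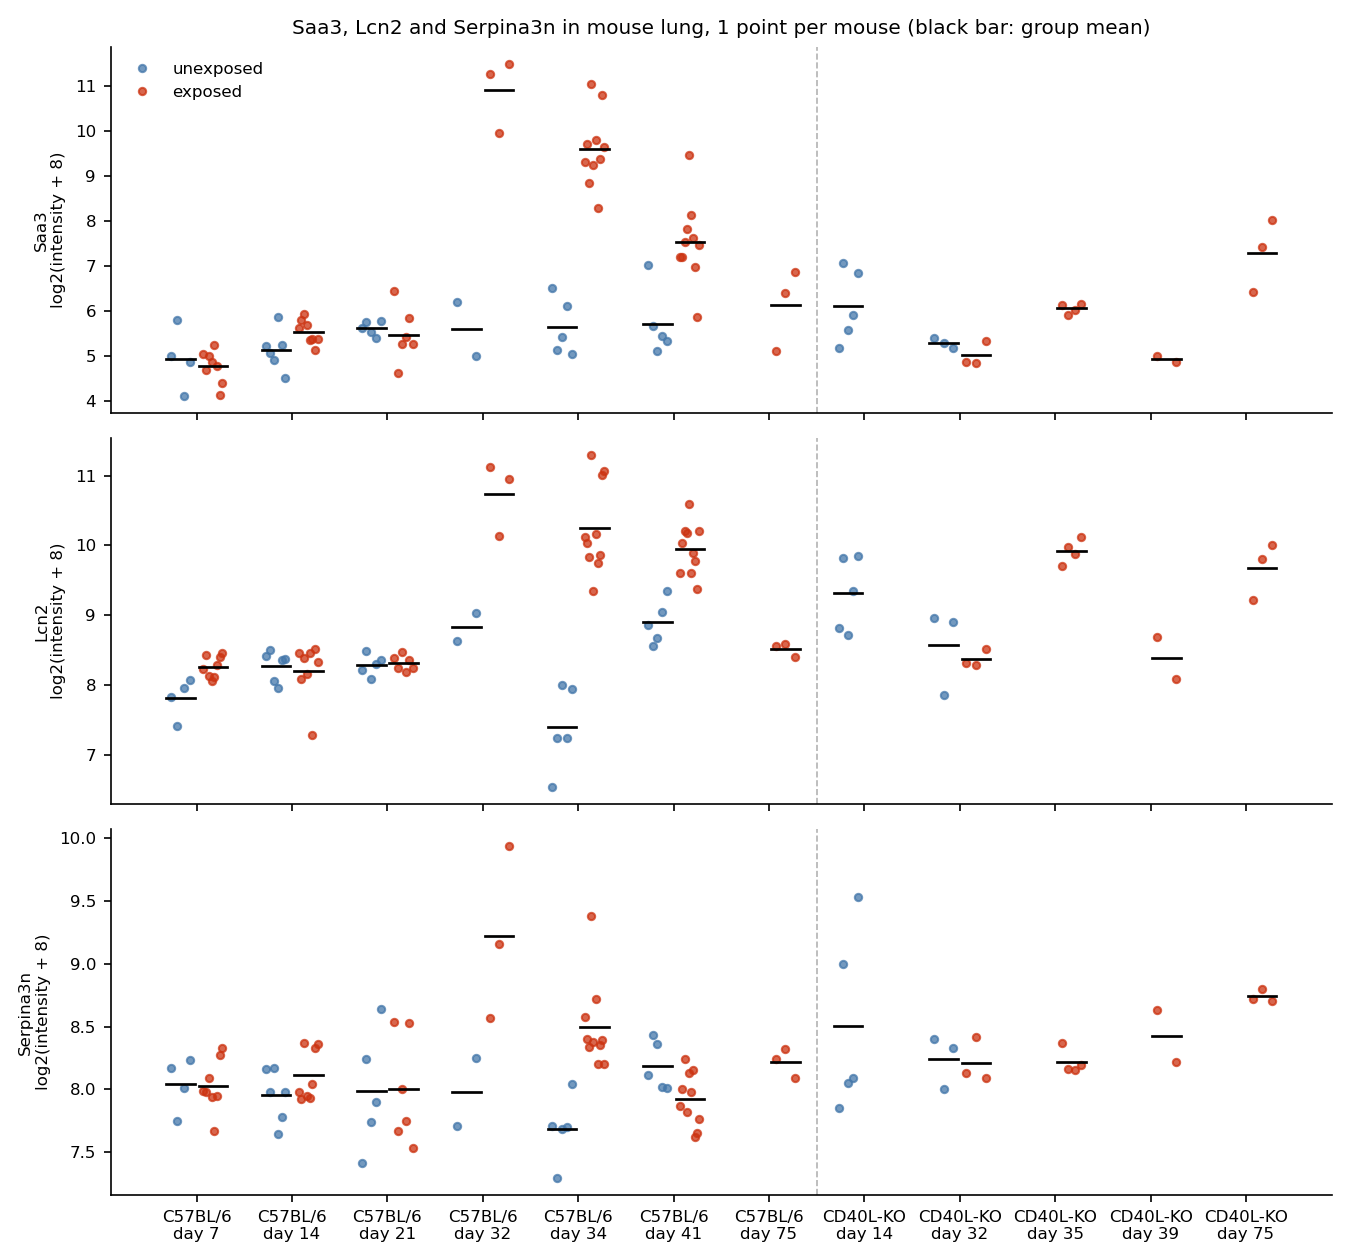
Levels of Saa3, Lcn2 and Serpina3n in every mouse of the 19 groups, as log2(intensity + 8), with exposed and unexposed mice in different colours and a bar at each group mean. The C57BL/6 mice of days 32 and 34 stand above their unexposed groups for all 3 genes, and Lcn2 is lowest in the unexposed mice of day 34.

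The array carries Lcn2 on a second probe set, and the pair did not move together. The dim one, 161684_r_at, averaged 5.54 against 8.9 for the bright one. At day 34 it ran from 30.0 to 73.8 in exposed and from 34.8 to 99.9 in unexposed mice, with a difference of -0.32 (SE 0.18) where the bright one gave 2.86. Its differences were 0.26 at day 32, 0.02 at day 41 and 0.03 in CD40L-KO mice at day 75. The suffix _r_at marks a probe set whose probes were selected under relaxed rules. Its values stay within a narrow band, from 4.82 to 6.0 over the 19 group means, and the fold changes of Lcn2 above rest on the bright probe set alone.

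Before day 32 the 3 genes were near their unexposed levels, with exceptions in Saa3 and Lcn2. Saa3 in exposed mice ran from 9.6 to 29.7 at day 7, from 27.1 to 53.3 at day 14 and from 16.5 to 79.0 at day 21, and the unexposed mice ran from 9.26 to 47.4, 14.9 to 50.5 and 34.4 to 46.9. The differences were -0.17 (SE 0.26), 0.4 (SE 0.23) and -0.15 (SE 0.25). Only the day 14 difference of Saa3 exceeded its SE. Lcn2 read 218.1, 162.3, 238.8 and 260.6 in the unexposed mice of day 7 and from 257.6 to 343.0 in the exposed mice, a difference of 0.45 (SE 0.15), with 7 of 8 exposed mice above every unexposed mouse. Its dim probe set went the other way at day 7, by -0.41 (SE 0.14), with 7 of 8 exposed mice below every unexposed mouse, so the direction is not shared by the 2 probe sets. The Lcn2 differences at days 14 and 21 were -0.06 (SE 0.13) and 0.03 (SE 0.15). Serpina3n differed by -0.01, 0.16 and 0.02 at days 7, 14 and 21, none above its SE at 2 decimals. No member was without overlap at these 3 days (0 of 3 each), where 0.461%, 0.109% and 0.485% of all genes had every exposed mouse higher.

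In CD40L-KO mice none of the 3 genes was higher after 32 days. Saa3 read 21.1, 20.7 and 32.4 in exposed and 34.4, 30.9 and 28.3 in unexposed mice, a difference of -0.28 (SE 0.4). Lcn2 read 309.6, 303.0 and 358.6 against 489.5, 223.3 and 468.4, a difference of -0.2 (SE 0.32). Serpina3n read 272.5, 335.1 and 263.6 against 330.0, 247.5 and 314.3, a difference of -0.03 (SE 0.3). All 3 genes overlapped between the groups. Set against C57BL/6 mice of the same experiment, the exposure effect in CD40L-KO mice was lower by 5.58 for Saa3 (a difference of -5.58, SE 0.6), and differed by -2.11 (SE 0.48) for Lcn2 and -1.27 (SE 0.46) for Serpina3n. Squamous markers were high on 2 of the 3 unexposed CD40L-KO arrays and on 0 of the 3 exposed, and the Gapdh ratio was 0.22 to 0.45 in unexposed against -0.12 to 0.0 in exposed mice; with that ratio as a covariate the CD40L-KO difference of Saa3 was -1.17. In the C57BL/6 mice of day 32 the squamous level was 4.36 to 4.58 on all 5 arrays.

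At day 35 the exposed CD40L-KO mice had even levels of Saa3, at 62.2, 52.4, 57.3 and 63.1, inside the range of the unexposed mice labelled day 14, at 27.9, 126.8, 39.5, 52.5 and 107.5. Lcn2 read 827.0, 1002.4, 935.9 and 1107.3 in exposed and 441.5, 896.5, 414.2, 644.7 and 913.7 in unexposed mice, and 3 of 4 exposed mice were above every unexposed mouse. Serpina3n read 322.0, 277.2, 275.3 and 283.4 against 222.4, 503.6, 257.1, 264.6 and 731.0. The differences were -0.06 (SE 0.35) for Saa3, 0.61 (SE 0.24) for Lcn2 and -0.29 (SE 0.31) for Serpina3n, and no member was without overlap, where 2.08% of all genes had every exposed mouse higher. Among the unexposed mice, numbers 2 and 5 had the highest value of all 3 genes. This unexposed group had the highest mean of the 8 unexposed groups for each gene, 6.12 for Saa3, 9.31 for Lcn2 and 8.5 for Serpina3n, and the lowest mean of the dim Lcn2 probe set, 4.94.

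At day 75 all 3 genes were higher in the CD40L-KO mice than in the day 32 unexposed mice of that strain. Saa3 read 78.1, 163.8 and 252.3, Lcn2 585.9, 890.6 and 1013.5, and Serpina3n 412.6, 438.2 and 409.1. The differences were 2.0 (SE 0.48), 1.1 (SE 0.3) and 0.5 (SE 0.26), with no overlap for 3 of 3 members, where 16.3% of all genes had none with exposed mice higher. Without the 2 squamous arrays among the 3 unexposed mice they were 2.11, 0.78 and 0.41. At day 39 the 2 CD40L-KO mice read 24.1 and 20.9 for Saa3, 404.2 and 265.2 for Lcn2, and 387.6 and 290.4 for Serpina3n. For Saa3 both mice lay below every unexposed mouse, where 10.2% of all genes had that pattern and 12.2% the opposite one, and the other 2 genes overlapped. The differences were -0.36 (SE 0.54), -0.18 (SE 0.34) and 0.18. The day 39 mice and the day 75 mice of both strains share 1 set of unexposed mice per strain.

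**Figure D3:**
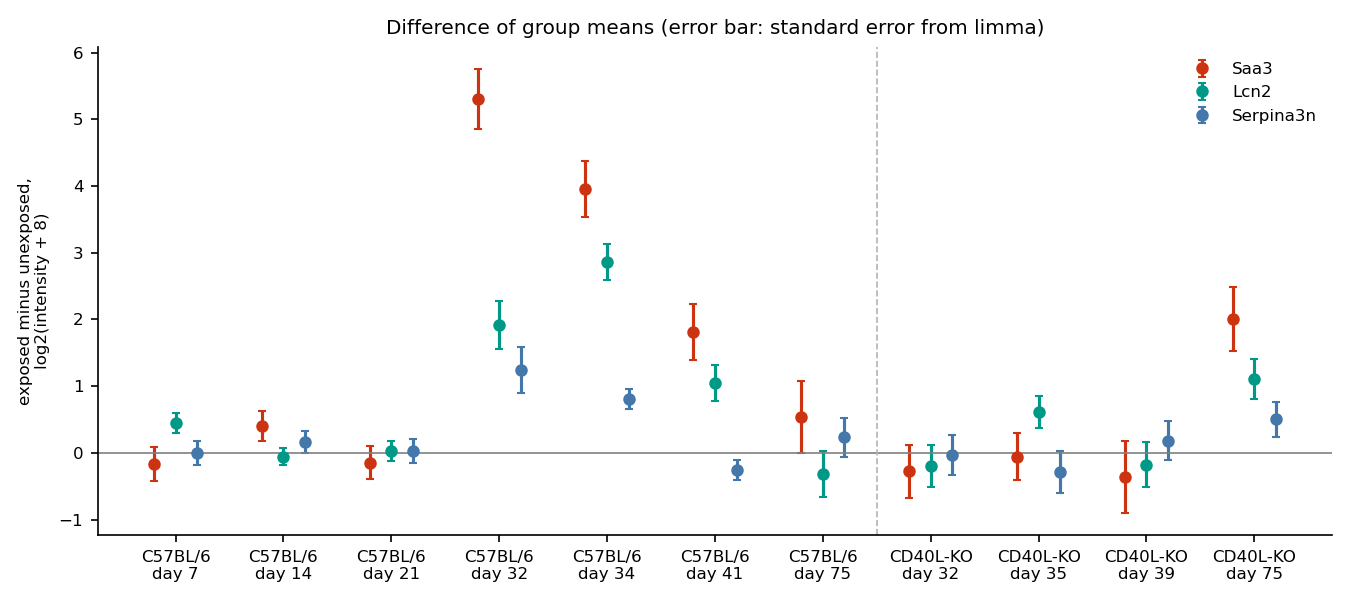
Difference of group means between exposed and unexposed mice on the log2(intensity + 8) scale for Saa3, Lcn2 and Serpina3n in the 11 comparisons, with the standard error from limma as bars; C57BL/6 days are left of the dashed line and CD40L-KO days right of it. Saa3 is highest at C57BL/6 day 32 (5.3), Lcn2 at day 34 (2.86), and in CD40L-KO mice day 75 is the highest for Saa3 (2.0) and Lcn2 (1.1).

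Ordered by group mean, Saa3 was highest in exposed C57BL/6 mice of day 32 (10.9 ± 0.83, SD, n = 3), then day 34 (9.6 ± 0.82, n = 10), day 41 (7.53 ± 0.91, n = 10) and CD40L-KO day 75 (7.29 ± 0.81, n = 3). The remaining 15 groups lay between 4.77 and 6.13. For Lcn2 the order began with the same 3 C57BL/6 groups, at 10.74 ± 0.52 (SD, n = 3), 10.25 ± 0.65 (n = 10) and 9.95 ± 0.37 (n = 10), followed by CD40L-KO days 35 (9.92 ± 0.18, n = 4) and 75 (9.67 ± 0.41, n = 3). For Serpina3n it began with exposed C57BL/6 day 32 (9.22 ± 0.69, SD, n = 3) and CD40L-KO day 75 (8.74 ± 0.05, n = 3), and the third was an unexposed group, CD40L-KO labelled day 14 (8.5 ± 0.73, n = 5). Each group overlapped the next in this order in the range of its mice, for all 3 genes. Unexposed group means of both strains spanned 1.18 for Saa3, 1.92 for Lcn2 and 0.82 for Serpina3n, with the CD40L-KO group labelled day 14 highest each time. Within C57BL/6 they ran from 4.94 to 5.72, 7.39 to 8.9 and 7.68 to 8.18. The low ends for Lcn2 and Serpina3n were the day 34 unexposed mice, which also enter the day 34 differences. Against the spans of both strains, the day 34 difference of Serpina3n (0.81) was no larger and that of Saa3 (3.95) was larger. The Lcn2 difference exceeded that span at day 34 (2.86) and not at day 32 (1.91), day 41 (1.05) or CD40L-KO day 75 (1.1). The Serpina3n difference of day 34 and the Lcn2 difference of day 32 were wider than the ranges within C57BL/6.

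Over the 19 group means Saa3 and Lcn2 had a Pearson r of 0.84 (Spearman rho 0.75), Saa3 and Serpina3n 0.7 (rho 0.34), and Lcn2 and Serpina3n 0.71 (rho 0.57). These describe means that share experiments and unexposed mice. Among individual mice of 1 group, Saa3 and Lcn2 were correlated at day 34 (r = 0.79, permutation p = 0.00601, adjusted p = 0.0556 over 12 relations, n = 10; rho = 0.84, permutation p = 0.00373, adjusted p = 0.0448). Without the 2 mice farthest from the median of Saa3, r was 0.48, so much of the relation rests on those 2 mice. At day 41 the same pair had r = 0.74 (permutation p = 0.0139, adjusted p = 0.0556, n = 10) and 0.03 without 2 mice, so there the relation rests on them. Saa3 and Serpina3n had r = 0.67 at day 34 (permutation p = 0.0366, adjusted p = 0.0878, n = 10). At day 7, when Saa3 was low in every mouse, it went against the other two, with r = -0.78 to Lcn2 (exact permutation p = 0.0226, adjusted p = 0.0679, n = 8) and r = -0.83 to Serpina3n (exact permutation p = 0.012, adjusted p = 0.0556, n = 8). No Pearson r passed adjustment at 0.05. The labels do not name cages, so the relations could not be given within cages.

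**Figure D4:**
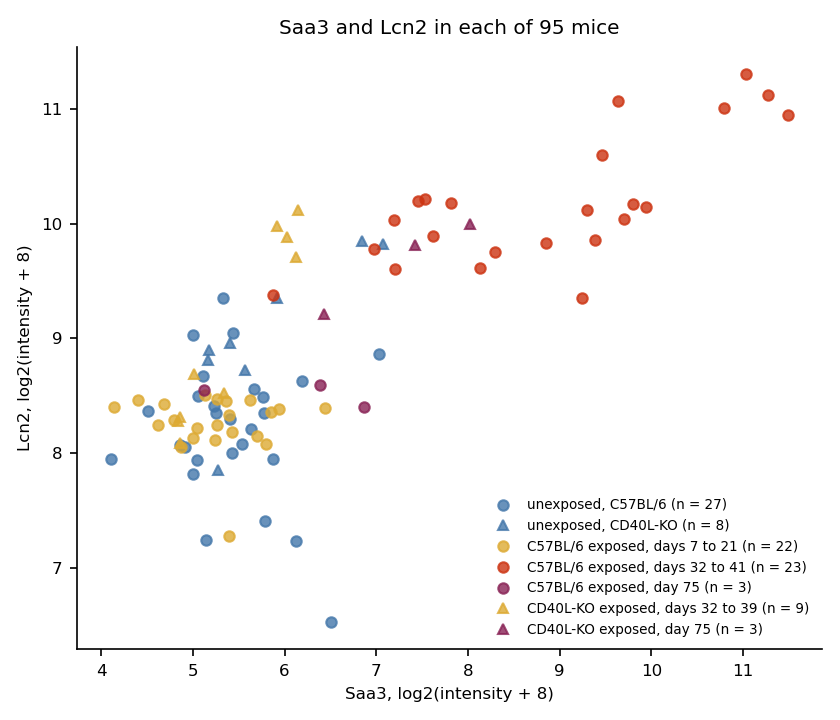
Saa3 on the horizontal axis against Lcn2 on the vertical axis, both as log2(intensity + 8), for all 95 mice, with 1 point per mouse. Colour and shape give strain, exposure and span of days. Exposed C57BL/6 mice of days 32, 34 and 41 share 1 mark, so day 34 (r = 0.79, n = 10) is not shown apart. Saa3 stays low in those of days 7 and 14 (n = 8 each), which share a mark with day 21.

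The signals known to drive these genes were read from 31 measured genes of the IL-6, IL-1, TNF, NF-kB and C/EBP pathways, tested with limma over all genes. At day 34, 6 of 31 rose and 0 fell, where 5.26% of all genes rose and 2.96% fell; the list's median difference was 0.26 against -0.01 over all genes. Cebpd, a transcription factor of the acute-phase response, rose by 0.95 (limma adjusted p = 0.038), the NF-kB subunits Relb and Nfkb2 by 0.76 (adjusted p = 0.00851) and 0.58 (adjusted p = 0.000217), Nfkbiz, a nuclear co-factor that Lcn2 induction is known to need, by 0.56 (adjusted p = 0.0452), the NF-kB inhibitor Nfkbia by 0.49 (adjusted p = 0.0156) and the TNF receptor Tnfrsf1b by 0.44 (adjusted p = 0.00777). Other probe sets of Nfkbia and Nfkbiz gave -0.14 and -0.04. The cytokines themselves did not pass: Il6 differed by 0.56 (adjusted p = 0.127), Il1b by 0.57 (adjusted p = 0.0573) and Tnf by 0.29, as did Stat3 (-0.02), Socs3 (0.33) and Cebpb (0.26). The count of 6 became 10 in a fit of all arrays and 1 with the squamous level as a covariate. It was 2 with the Gapdh ratio as a covariate, Nfkb2 and Tnfrsf1b, and 0 without the arrays with squamous markers above 7. Against the unexposed mice of days 34 and 41 pooled it was 5. There Cebpd (0.42, limma adjusted p = 0.424), Relb (0.47, adjusted p = 0.0961) and Nfkbia (0.26, adjusted p = 0.23) lost their calls. Nfkb2, Nfkbiz and Tnfrsf1b kept theirs, and Socs3 (0.35, adjusted p = 0.0191) gained one.

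At day 32, with 5 C57BL/6 mice, 3 of the 31 rose and 0 fell, where 1.35% of all genes rose and 0.303% fell, with a list median of 0.45. They were the kinase Pim1, a STAT target, by 1.27 (limma adjusted p = 0.0104), Nfkbiz by 1.23 (adjusted p = 0.0103) and Socs3, the feedback inhibitor of IL-6 signalling, by 0.83 (adjusted p = 0.0405). Il6 differed by 1.9 (adjusted p = 0.0715) and Il1b by 1.32. The count was 8 without exposed mouse 2 and 0 without either unexposed mouse, 11 with all arrays in 1 fit, and 0 with the mean of all probe sets. In CD40L-KO mice at day 75, 3 of 31 rose, where 5.58% of all genes rose and 2.84% fell: Nfkbiz by 1.06 (limma adjusted p = 0.000981), Socs3 by 0.7 (adjusted p = 0.0123) and the oncostatin M receptor Osmr by 0.64 (adjusted p = 0.0429). At day 34 Nfkbiz had a limma adjusted p of 0.419 with the Gapdh ratio as a covariate. Its dim second probe set gave 0.48 at day 32, -0.04 at day 34 and 0.46 in CD40L-KO mice at day 75. The day 75 count was 1 with the squamous level as a covariate and 0 or 1 without the squamous arrays, depending on their definition, and 5 with an offset of 32. At day 41 limma called 0 of the 31, with 5 at an unadjusted p under 0.05, where 0.388% of all genes rose; it called 1 with all arrays in 1 fit and 2 with pooled controls.

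Other acute-phase genes of the lung followed only in part. Of 29 measured members of an acute-phase list without the 3 genes, 6 rose and 0 fell at day 34, where 5.26% of all genes rose and 2.96% fell, with a median difference of 0.08 against -0.01 over all genes. Lrg1, a leucine-rich glycoprotein of the acute phase, rose by 1.75 (limma adjusted p = 7.91e-07), Ltf (lactoferrin, an iron-binding protein of secretions and neutrophils) by 1.55 (adjusted p = 0.0407), the protease inhibitor Timp1 by 1.18 (adjusted p = 4.57e-05), Itih4 by 1.11 (adjusted p = 6.32e-05), the copper carrier Cp (ceruloplasmin) by 0.87 (adjusted p = 0.000618) and the lipopolysaccharide co-receptor Cd14 by 0.69 (adjusted p = 0.00411). A dim second probe set of Timp1 gave -0.12, and Ltf had an adjusted p of 0.445 with the Gapdh ratio as a covariate and 0.0719 with the unexposed mice of both days pooled. Haptoglobin (Hp), which was bright in both groups at 11.3 and 11.26, differed by 0.04 (SE 0.11), and Orm1, at 4.18 and 4.44, by -0.26 (SE 0.41). Against the pooled controls of days 34 and 41, Lrg1 rose by 1.13 (limma adjusted p = 0.00148), and its unexposed mean, like that of Lcn2, was lower at day 34 (7.5) than at day 41 (8.74). Without the arrays with squamous transcripts by the wider definition, which left 1 unexposed mouse, 0 of the 29 were called, and without unexposed mouse 5 the count was 10.

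The acute-phase list gave 2 of 29 at day 32, where 1.35% of all genes rose, Timp1 by 1.88 (limma adjusted p = 0.0353) and Cd14 by 1.09 (adjusted p = 0.0426), and 0 when exposed mouse 1 or 3 or either unexposed mouse was left out. It gave 1 of 29 at day 41, where 0.388% of all genes rose, Itih4 by 0.99 (limma adjusted p = 0.00244). In CD40L-KO mice at day 75 it gave 2 of 29, near the 5.58% of all genes that rose, namely Lrg1 by 1.05 (adjusted p = 0.00558) and Itih4 by 0.86 (adjusted p = 0.00982), a count of 5 without unexposed mouse 3 and 0 without the squamous arrays. In the other 7 comparisons limma called 0 of the 29, and also 0 of the 31 upstream genes. Of all genes, 0.218% rose and 0.0485% fell at day 14, 0.0606% and 0.0121% in CD40L-KO mice at day 32, 0.0364% and 0.0242% at day 39, 1.01% and 0.461% in C57BL/6 mice at day 75, and 0 at day 7, day 21 and CD40L-KO day 35, where 545, 958 and 769 genes had an unadjusted p under 0.05. In these 7 comparisons 0 to 6 of the 29 and 2 to 11 of the 31 had an unadjusted p under 0.05, most at CD40L-KO day 35.

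**Figure D5:**
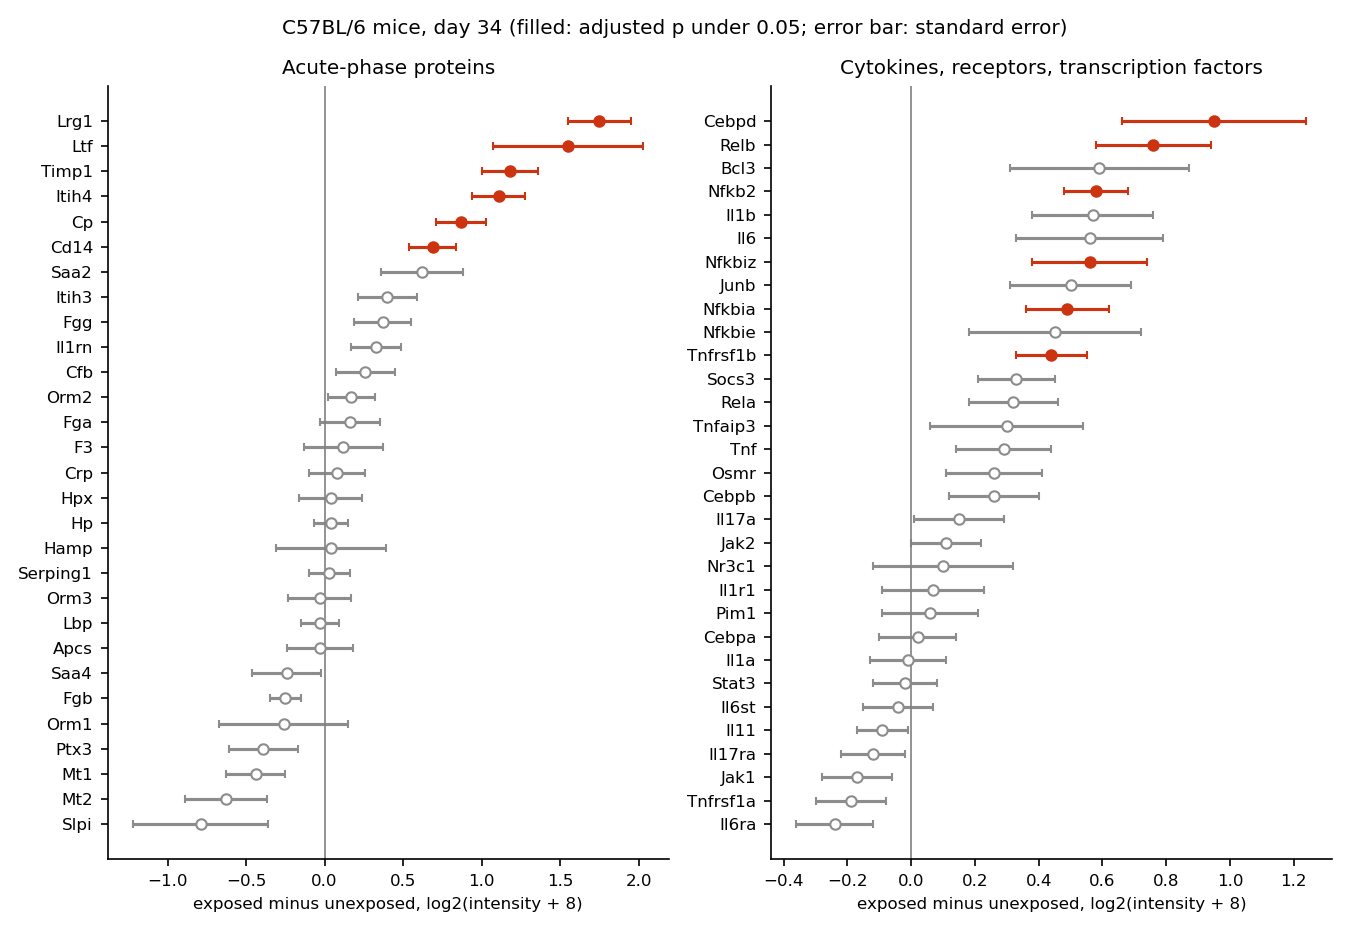
Differences between exposed and unexposed C57BL/6 mice at day 34, on the log2(intensity + 8) scale, for the genes of the acute-phase and upstream signal lists. Each gene has 1 point with its standard error as a bar, filled where the limma adjusted p was under 0.05. Lrg1 is the highest (1.75), and most listed genes lie near 0. Saa3 (3.95) and Lcn2 (2.86) are not plotted and had larger differences than every gene shown.

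Receptors and binding partners were measured for 10 genes. Fpr2, a formyl peptide receptor that also binds serum amyloid A, rose at day 34 by 0.8 (limma adjusted p = 0.0211) and in CD40L-KO mice at day 75 by 1.25 (adjusted p = 0.0111). Cd36, a scavenger receptor that takes up serum amyloid A, fell at day 34 by 0.63 (limma adjusted p = 0.00505) and at day 32 by 1.11 (adjusted p = 0.0237). With the Gapdh ratio as a covariate both day 34 calls were lost (limma adjusted p = 0.19 for Fpr2 and 0.0736 for Cd36), as they were without the squamous arrays by the wider definition (0.68 and 0.822). The Lcn2 receptor Slc22a17 differed by -0.05 at day 34 and did not pass, and Lrp2 (megalin), which takes up Lcn2, was higher in CD40L-KO mice at day 75 by 1.05 (limma adjusted p = 0.001). Its mean was 6.86 there and 5.81 in the day 32 unexposed CD40L-KO mice, of which 2 of 3 had high squamous markers. In unexposed C57BL/6 mice of day 41 it was 6.84. The day 75 calls of Fpr2 and Lrp2 were not examined under these alternatives. Mmp9, which forms a complex with Lcn2, differed by -0.29 at day 34, and the proteases Elane (-0.19), Ctsg (-0.34) and Gzmb (0.46), the last a target of Serpina3n, did not pass either. Of the 5 measured relatives, Saa2, Saa4, Lcn3, Lcn4 and Lcn5, limma called 0 in any of the 11 comparisons; up to 2 of 5 had an unadjusted p under 0.05. At day 34, 2 of 5 had an unadjusted p under 0.05, among them Saa2 at 0.62 (adjusted p = 0.124), whose dimmer probe set gave -0.11. Saa1 and the other Serpina3 genes were not analysed here, and near-identical copies of Saa and Serpina3 genes can share probes.

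Since Lcn2 is also a neutrophil granule protein, neutrophil markers were read beside it. At day 34, 1 of 13 rose, near the share over all genes (5.26%), and that gene, Ltf, is also in the acute-phase list and lost its call with the Gapdh ratio as a covariate or with pooled controls; S100a8 and S100a9, which neutrophils carry in bulk, differed by -0.54 (SE 0.28) and -0.78 (SE 0.31), and neither passed. The granule genes Camp, Ngp, Mmp8, Mpo and Elane differed by -0.36, -0.13, -0.11, -0.13 and -0.19. The mean level of the 13 markers lay between 5.26 and 5.57 in the exposed and 5.37 and 5.91 in the unexposed mice of day 34. At day 32 it was 5.53 to 5.85 against 5.76 to 5.99. Elane, Mpo, Prtn3 and Ctsg were dim, at 3.27 to 5.39 in the exposed mice of day 34. Of 10 macrophage markers 4 rose and 0 fell at day 34, where 5.26% of all genes rose and 2.96% fell (Cd68 by 0.82, Msr1 by 0.83, Cd14 by 0.69 and Mrc1 by 0.54). Differences over the 10 ran from -0.4 to 0.83, Cd14 is also in the acute-phase list, and this count was not repeated under the alternatives. The mean level of the 10 markers lay between 6.68 and 7.29 in the exposed and 6.53 and 6.86 in the unexposed mice. The macrophage level was 7.0 to 7.42 against 6.65 to 6.68 at day 32 and 7.13 to 7.18 in the CD40L-KO mice of day 75 against 6.45 to 6.73. It was also higher without overlap in the CD40L-KO mice of day 35, at 6.97 to 7.12 against 6.24 to 6.69. In that comparison Saa3 differed by -0.06, Serpina3n by -0.29 and Lcn2 by 0.61 (SE 0.24). Hepatocyte markers stayed between 3.97 and 4.64 at day 34. The part of a changed share of neutrophils or macrophages in the members' differences was not tested.

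The genes whose group means were most like those of each member were named from the genes brighter than the median gene, by Pearson r over the 19 groups. For Saa3 they were AW112010 (r = 0.943), Tgfbi, an extracellular matrix protein (0.932), the complement genes C1qa (0.93) and C1qc (0.915), and the immunoproteasome subunit Psmb8 (0.913). For Lcn2 they were Lrg1 (0.929), the MHC class II gene H2-Ab1 (0.923), the chitinase-like Chil3 (0.917), D17H6S56E-5 (0.911) and Hfe, an MHC-like protein of iron regulation (0.909). For Serpina3n r was lower: Ifi35 (0.858), Rnf19b (0.833), Odc1, the first enzyme of polyamine synthesis (0.825), Lsm4 (0.821) and Tgfbi (0.809). By Spearman rank, 0 of the 5 remained for Saa3, 2 for Lcn2 and 1 for Serpina3n. Over single arrays in place of group means, 3 of 5, 3 of 5 and 1 of 5 remained, and with quantile normalization 3, 4 and 4 of 5.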

How the data were processed

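Per the labels' protocols, lung RNA was transcribed in vitro into biotin-labelled RNA for Affymetrix arrays. As deposited, the table has 1 linear intensity per probe set and array (12487 probe sets, 95 arrays, 1 missing value) from the authors; how probes were summarised is not stated in the sources used here. Trimmed array means were 100.05 to 100.07, so the deposited intensities had been scaled; array medians were 35.5 to 46.3. For arrays the number of mice limits precision.

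Values were analysed as log2(intensity + 8). Of the probe sets, 10855 had 1 gene symbol in the platform annotation, 396 had several and 1236 had none; 10839 Entrez identifiers were in the RefSeq table. The brightest probe set stood for each of 8251 genes (2072 had several). Groups came from the labels. Each stated experiment was fitted separately in R 4.3.3 (limma 3.58.1, functions lmFit and eBayes), Benjamini-Hochberg over all genes, threshold 0.05, after a check on simulated data. The mice of days 39 and 75, whose experiment is not stated, were fitted in 1 model with the day 32 mice of both strains. Nothing in the labels says how mice relate beyond cages, so p-values measure the spread between these mice. Correlations used permutation of pairings (100000 resamples, or exact with 8 mice; scipy 1.17.1). Named pathway genes were the called genes of the lists with the largest differences (up to 8 at day 34 and 4 elsewhere) and a fixed set; most-like genes were the 5 highest Pearson r.

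The members and lists were chosen with earlier results of these data known. Alternatives were offsets of 2 and 32, quantile normalization, the mean of all probe sets, 1 fit of all arrays, pooled unexposed mice, the squamous level or Gapdh ratio as covariates, arrays with squamous markers above 7 left out, the replicate number as a block, and each mouse left out; a squamous level of 6 was added after seeing the data, since no array lies between 4.8 and 6.3.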

Additional observations from a re-analysis of the deposited data

Results flagged for a closer look

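In 48 sets of 4 to 10 mice examined (a probe set in a group), 3 had a mouse far from the others, and chance alone flags about 1 in 20. In the exposed C57BL/6 mice of day 14, mouse 6 had a low Lcn2 level of 7.28 (intensity 147.7), where the next lowest was 8.08; its Gapdh ratio, 0.86, was the highest of its group. In the exposed mice of day 34, mouse 4 had the highest Serpina3n level, 9.38 (intensity 656.5), where the next was 8.72. In the same group mouse 2 had a level of 6.35 (intensity 73.8) on the dim Lcn2 probe set, where the next was 5.78; its Gapdh ratio, 1.59, was the highest of its group.

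At day 32 the exposure difference of Lcn2 was 1.91 in C57BL/6 mice, with every exposed mouse above the unexposed mean, and -0.2 (SE 0.32) in CD40L-KO mice, with every exposed mouse below the unexposed mean but inside the unexposed range. The CD40L-KO value was 0.09 with the Gapdh ratio as a covariate, 0.01 with both probe sets averaged and -0.56 to 0.0 with 1 mouse left out, so no lower level is shown in that strain. The difference between strains was not tested.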

How the results depend on the processing

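Of 366 values of the members' differences under alternatives, 349 moved by less than the spread between mice and 17 by more. Of 309 values with 1 mouse left out, 4 moved by more. The first tally overstates stability, since part of its values could not move. Leaving out dim genes and fitting all arrays at once keep the difference of group means. Averaging probe sets acts on Lcn2 alone, and leaving out squamous arrays changes no difference whose groups have none. With the mean of all probe sets, Lcn2 differed by 0.02 at day 7, 1.08 at day 32, 1.27 at day 34, 0.53 at day 41, 0.57 in CD40L-KO mice at day 75 and -0.13 in C57BL/6 mice at day 75. In that setting r was 0.8 and 0.83 for Saa3 and Lcn2 at days 34 and 41, past the adjusted threshold. The r of Saa3 and Serpina3n at day 7 stayed at -0.83, since averaging does not touch either gene. It passed the threshold only because the p-values of other pairs changed the adjustment. Pooled unexposed mice gave Lcn2 2.11 at day 34 and 1.8 at day 41, Serpina3n -0.01 at day 41 and 2 acute-phase genes at day 41. The Gapdh ratio gave Saa3 -1.17 in CD40L-KO mice at day 32, 0.28 at day 39 and 1.74 in C57BL/6 mice at day 75, and 1 and 2 acute-phase genes at days 32 and 41. The squamous level gave Saa3 -0.06 at day 39, Serpina3n 0.33 in CD40L-KO mice at day 75, and 1 and 0 acute-phase genes at days 32 and 75. Leaving out squamous arrays above 7 gave 0 acute-phase genes at days 32 and 75, and above 6 gave 0 at days 32, 34 and 75 and Serpina3n 0.43 at day 34; the cause was not tested beyond the smaller number of mice. An offset of 32 gave Saa3 -0.21 at day 39, an offset of 2 gave 0 acute-phase genes at day 32, and 1 fit of all arrays gave 4 at day 32 and 2 at day 41.

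With the replicate number as a replicate block, Saa3 differed by 5.17 at day 32, 4.12 at day 34 and -0.13 at day 39, Lcn2 by 2.89 and Serpina3n by 0.91 at day 34, and 0 acute-phase genes passed at day 32. Same-numbered mice correlated between -0.42 and 0.51, so the numbers do not pair them. With 1 mouse left out, the day 75 C57BL/6 differences ran from -0.06 to 1.13 for Saa3, -0.51 to -0.12 for Lcn2 and -0.04 to 0.5 for Serpina3n, and acute-phase counts ran from 0 to 3 at day 32, 5 to 10 at day 34, 0 to 2 in CD40L-KO mice at day 32, 0 to 1 at day 39 and 2 to 5 at day 75.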
